A study of Mus musculus with 8 samples.

Results

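The 5 genes described here encode the surface proteins by which mouse hematopoietic stem and progenitor cells (HSPCs) are gated in flow cytometry: Ly6a (Sca-1), Kit (c-Kit), Slamf1 (CD150), Cd48 and Cd34. They were taken by symbol from the 27998 genes of the count tables, and all 5 were present in each of the 4 libraries. Single-cell RNA was measured in bone marrow cells of wildtype mice aged 12 to 14 weeks, 4 mice each for control (100 µl PBS) and for 3, 24 and 72 h after a subcutaneous dose of recombinant mouse IFNα of 50000 IU for each 20 g of body weight. The 4 mice of a time point carried different hashtag antibodies and shared a single droplet library, so that time point and library cannot be told apart. The kept cells numbered 2474 in the control library and 1661, 3462 and 2449 in the libraries of 3, 24 and 72 h, which was 10046 of 13310 deposited barcodes. The sort itself used 4 of these proteins. Every cell came through a Lin- c-Kit+ gate (LK cells), the added HSCs came through a further CD150+ CD48- CD34- gate, and the sort that fed the libraries set no gate on Sca-1. Cells whose protein lay outside a gate were not collected through it. The part of this selection in the Kit, Slamf1, Cd48 and Cd34 values below was not tested.

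Sca-1 is a small protein of the Ly6 family held in the membrane by a lipid anchor, and its presence together with c-Kit on lineage-negative cells defines the LSK gate that holds HSCs and multipotent progenitors. c-Kit is the receptor tyrosine kinase for stem cell factor. CD150 and CD48 belong to the SLAM family of immune cell receptors, and CD150+ CD48- cells within the LSK gate are enriched for long-term HSCs, from which CD34, a sialomucin, is absent in the adult mouse. Type I interferons are known to raise Sca-1 on progenitors. This has been held to let cells from outside the LSK gate enter it, which the authors of these data dispute for myeloid progenitors. The transcripts below are measured per cell class, where the gate would measure protein per cell.

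Kept cells were grouped into classes without the 5 genes, so that no class was defined by them. The HSC-like class held clusters 4 and 10, the myeloid progenitor-like class clusters 1, 5 and 7, the megakaryocyte (MK) progenitor-like class cluster 3, the erythroid progenitor-like class cluster 6 and the LMPP-like class cluster 11, and the other clusters are given by number. The classes of the labelled population, HSPCs of the bone marrow, were named from fixed marker lists. Sums of the same markers therefore describe the classes and do not test their names. The 14 HSC markers summed to between 1554 and 2015 CPM, the UMIs of a gene scaled to a common library total, in the HSC-like class of the control mice and to between 64.3 and 96.8 CPM in the myeloid class. In the MK class of control they summed to between 999 and 1123 CPM. Among the leading genes of the LMPP-like cluster were also Ifit1, Iigp1 and Isg15, and among those of cluster 10 were Jchain, Mzb1 and Cd79a. Those of cluster 4, the larger HSC-like cluster, included Dntt, a gene of the LMPP marker list. In control, cluster 4 had 107.2 CPM of Cd48 and 275.1 CPM of Cd34, against 24.4 and 196.3 CPM in cluster 10. UMIs (unique molecular identifiers, 1 per captured transcript) of the kept cells of a mouse totalled between 1102706 and 26446327. Control mouse 4 had 58 kept cells against 330 to 1240 in the other mice, and was therefore missing from the erythroid, MK and LMPP-like classes, which required 10 cells. The 3 h library had the lowest median of UMIs per cell (12017, against a highest of 18964.5), and no pair of libraries shared more than 1 kept cell barcode. UMIs were summed per mouse and class, CPM were scaled with edgeR's TMM factors, and the 16 mice were compared with edgeR's quasi-likelihood test. A gene is said to pass where its p, adjusted over all genes tested by Benjamini-Hochberg, was below 0.05. Errors after a log2 fold change are standard errors, and errors after a mean are SDs over mice. The mice of a time point are separate animals of 1 library, so these p-values measure the spread between animals and not between libraries.

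The 5 genes lie on 3 chromosomes (GRCm38, GENCODE vM21). Ly6a spans chr15:74994877-74998031 on the minus strand among other genes of its family, and how reads shared with its close paralogs were treated is not given in the sources used here. Kit spans chr5:75574916-75656722 on the plus strand. Cd48 at chr1:171682009-171705258 and Slamf1 at chr1:171767127-171801184 are neighbours on the plus strand with 61868 bases between them, and Cd34 lies further along the same chromosome at chr1:194938819-194961279, also on the plus strand.

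The start regions of Kit and Cd48 are shown because Kit fell in the HSC-like and rose in the myeloid class after IFNα and Cd48 rose in the erythroid class, with the start region of Isg15, a gene of the interferon-stimulated gene (ISG) list, for comparison. Each runs 5′ to 3′ on the strand of its gene from 250 bases before to 50 bases after the start site in RefSeq (GRCm38.p6), where 4 of the 5 members were matched and Ly6a was not. The capitals mark matches to GAAANNGA for Cd48, at chr1:171681742-171682041, and to the interferon-stimulated response element (ISRE), which is GAAANNGA lengthened by AA at its 3′ end, for Isg15, at chr4:156200769-156201068. The region of Kit, at chr5:75574737-75575036, has no capitals since neither motif was found in it.
Kit: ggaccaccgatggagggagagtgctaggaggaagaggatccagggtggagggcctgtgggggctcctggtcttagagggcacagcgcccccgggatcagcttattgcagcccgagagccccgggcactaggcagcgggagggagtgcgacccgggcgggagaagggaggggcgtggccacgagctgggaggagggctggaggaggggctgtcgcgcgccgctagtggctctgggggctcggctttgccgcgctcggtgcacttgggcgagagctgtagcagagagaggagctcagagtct
Cd48: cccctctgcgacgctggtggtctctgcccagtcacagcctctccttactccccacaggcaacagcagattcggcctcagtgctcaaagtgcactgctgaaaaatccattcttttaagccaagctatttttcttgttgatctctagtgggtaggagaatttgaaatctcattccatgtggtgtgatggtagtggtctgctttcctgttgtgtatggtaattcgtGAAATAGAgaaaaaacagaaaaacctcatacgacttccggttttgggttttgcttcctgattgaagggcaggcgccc
Isg15: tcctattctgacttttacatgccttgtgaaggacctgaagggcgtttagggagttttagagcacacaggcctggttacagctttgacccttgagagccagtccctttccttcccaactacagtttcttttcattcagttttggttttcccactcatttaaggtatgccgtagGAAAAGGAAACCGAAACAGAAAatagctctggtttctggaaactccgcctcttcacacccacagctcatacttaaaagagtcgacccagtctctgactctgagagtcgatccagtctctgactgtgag

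On both strands, the ISRE letters were found in 3.44% of 32851 start regions of this length, and in none of the 4 members matched. The 3 matches of Isg15 overlap, starting 78, 72 and 66 bases before the start site. The shorter GAAANNGA, which every ISRE match contains, was found in 20.95% of start regions and, among the members, in Cd48 alone, 27 bases before the start. The letters TTCNNNGAA, the core of a STAT binding site, were found in 8.30% of start regions and in no matched member. The motif of the factor family to which Gata2 belongs, searched as GATAA, was found in 25.4% of start regions, among them those of Slamf1 and Cd34. These are matches of letters in a 300 base window and not measured sites.

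Ly6a rose in the HSC-like class from 184.3 ± 42.4 CPM in control to 867.6 ± 69.3 CPM 3 h after IFNα. It was lower again after 24 h, with 412.0 ± 24.2 CPM, and after 72 h, with 136.5 ± 19.1 CPM (n = 4 mice each). The control mice 1 to 4 had 233.8, 133.0, 173.0 and 197.7 CPM, and the 3 h mice had 918.1, 934.8, 823.3 and 794.3 CPM. At 24 h the values were 412.8, 415.2, 380.6 and 439.6 CPM, and at 72 h 116.3, 146.3, 158.0 and 125.2 CPM. All mice of 3 and 24 h lay above all control mice, whereas the 72 h mice overlapped with control. The log2 fold change against control was 2.24 ± 0.10 at 3 h (adjusted p = 1.28e-19), 1.17 ± 0.10 at 24 h (adjusted p = 1.14e-10) and -0.43 ± 0.11 at 72 h (adjusted p = 0.0168). The fall at 72 h was lost without control mouse 1, the highest of its group (log2 fold change -0.22, adjusted p = 0.335), without 72 h mouse 1 (-0.36, adjusted p = 0.0937) or 72 h mouse 4 (-0.40, adjusted p = 0.0544), with DESeq2 (-0.43, adjusted p = 0.0883) and with likely doublets removed (-0.30, adjusted p = 0.141). Between time points, Ly6a fell by 1.07 on the log2 scale from 3 to 24 h (adjusted p = 1.95e-12, 17.6% of genes called) and fell by 1.60 from 24 to 72 h (adjusted p = 5.61e-15, 2.75% called).

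Of the 5 members tested in the HSC-like class, 2 passed at 3 h, where 19.3% of 9799 genes passed. At 24 and 72 h it was 1 of 5, against 5.07% and 4.64% of all genes.

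**Figure D1:**
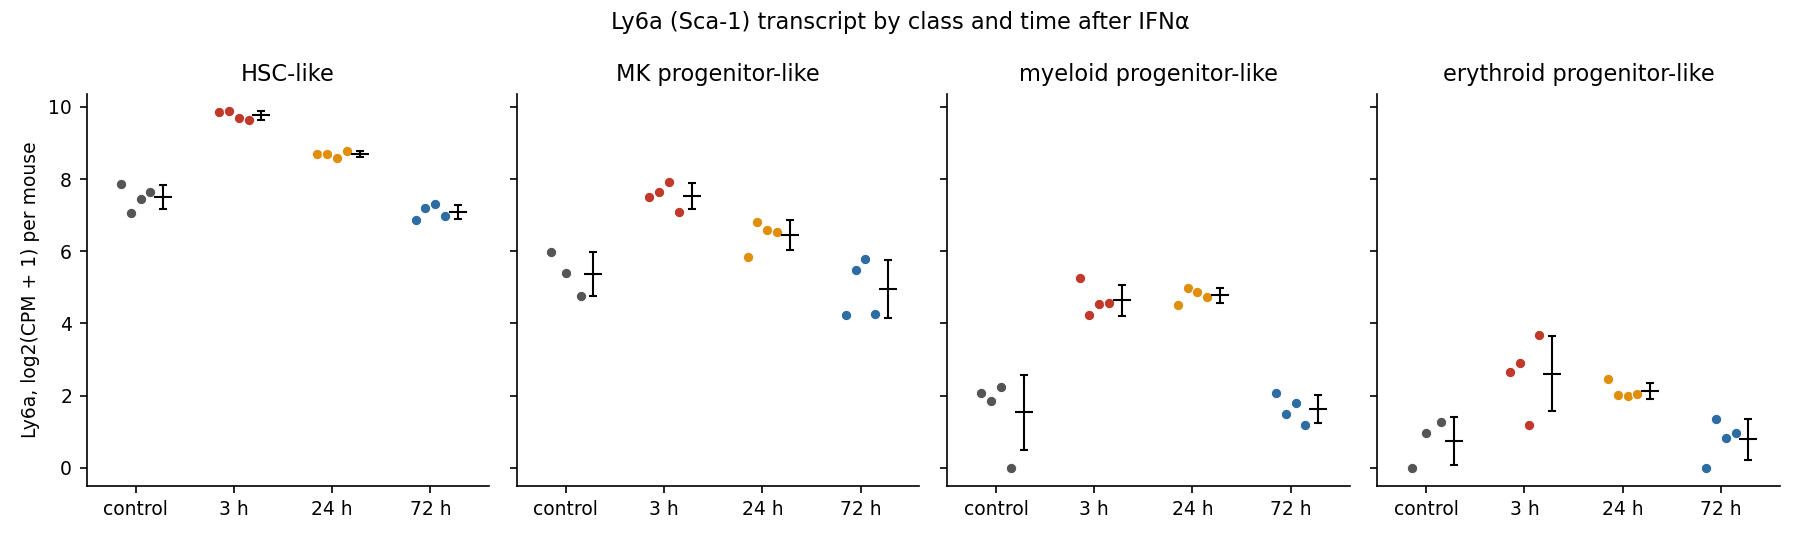
Ly6a transcript per mouse in 4 classes (points, log2 of CPM plus 1) by time after IFNα, with the mean and SD of each group beside the points. The 3 h and 24 h mice lie above all control mice in the HSC-like and myeloid classes, and at each time the HSC-like mice lie above those of the other classes.

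Ly6a in the myeloid progenitor-like class started from 2.38 ± 1.65 CPM in control, where the 4 mice had 3.18, 2.62, 3.71 and 0 CPM. The 3 h mice had 37.1, 17.8, 22.3 and 22.6 CPM and the 24 h mice 22.0, 30.8, 28.1 and 25.5 CPM, so that both groups lay above all control mice. At 72 h the values were 3.20, 1.83, 2.50 and 1.27 CPM, within the range of control. The log2 fold changes against control were 3.01 ± 0.24 at 3 h (adjusted p = 1.44e-12), 3.102 ± 0.21 at 24 h (adjusted p = 5.65e-15) and -0.41 ± 0.37 at 72 h (adjusted p = 0.505). From 3 to 24 h the change did not pass (log2 fold change 0.09, 95% interval -0.25 to 0.42, adjusted p = 0.776), and from 24 to 72 h it fell by 3.52 on the log2 scale (adjusted p = 1.33e-12, 3.97% of genes called). The HSC markers do not tell stem cells placed in this class from expression by myeloid cells. Their summed CPM in it ranged from 64.3 to 96.8 in the control mice and from 64.9 to 71.8, 78.9 to 114 and 81.8 to 105 in the mice of 3, 24 and 72 h, with Fgd5 at 0 in all groups but 24 h. In the HSC-like class the same markers also summed lower at 3 h, to between 1347 and 1570 CPM, and the part of misplaced stem cells in the Ly6a values was not tested. The clusters behind the class shifted as well. Cluster 7, in which Ly6a was at 1.0797 CPM in control, took 24.3% of the class in control and 6.87% and 8.27% at 3 and 24 h, while cluster 5, at 4.31 CPM in control, took 29.5% and then 43.5% and 43.8%. Within clusters 1 and 5 the log2 fold changes at 24 h, 2.49 ± 0.29 and 3.02 ± 0.32, were below that of the class, and the part of the shift in the class value was not tested.

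Of the 4 members tested in the myeloid class, 2 passed at 3 h, 3 at 24 h and 2 at 72 h, where 24.8%, 15.6% and 15.4% of 9729 genes passed.

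Despite these rises, the Ly6a transcript of the myeloid class stayed below that of HSC-like cells. Its mean at 3 and 24 h was 7.39-fold and 6.93-fold lower than the mean of the HSC-like class in control, and 0 of 4 mice at either time reached the lowest control HSC-like value of 133.0 CPM. CPM are relative to all UMIs, and myeloid cells held more of them. The median per cell was 25029.5 at 3 h and 34639 at 24 h, against 11071 in HSC-like cells of control. Ly6a UMIs were 158 in 262 myeloid cells at 3 h, 655 in 689 at 24 h and 932 in 416 control HSC-like cells. Per cell, the distance to the HSC-like class was thus smaller than in CPM.

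In the MK progenitor-like class, Ly6a rose from 43.0 ± 17.8 CPM in control (n = 3) to 187.9 ± 44.2 CPM at 3 h (n = 4), a level that exceeded the lowest control HSC-like value in 4 of 4 mice. The control mice 1 to 3 had 61.5, 41.5 and 26.0 CPM, the 3 h mice 179.4, 197.4, 240.8 and 134.0 CPM, and the 24 h mice 56.3, 110.3, 95.3 and 90.7 CPM. At 72 h the values were 17.9, 44.0, 53.8 and 18.2 CPM. The 3 h mice were above all control mice, and the 24 h and 72 h mice overlapped with them. The log2 fold changes were 2.07 ± 0.25 at 3 h (adjusted p = 1.93e-08), 1.03 ± 0.24 at 24 h (adjusted p = 0.00430) and -0.55 ± 0.30 at 72 h (adjusted p = 0.364). The change at 24 h was not called by DESeq2 (adjusted p = 0.158) or without control mouse 3 (log2 fold change 0.81, adjusted p = 0.0711). In this class Ly6a was the 1 member of 5 that passed at 3 and at 24 h, against 10.4% and 3.74% of 8848 genes. The 14 HSC markers summed there to 999 to 1123 CPM in control and 825 to 891 CPM at 3 h. In the HSC-like class of control they summed to between 1554 and 2015 CPM. The part of stem cells placed in the MK class in its Ly6a values was not tested.

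The LMPP-like class, lymphoid-primed multipotent progenitors by their markers, allowed a test at 24 h only. There Ly6a was at 177.9 ± 47.6 CPM (n = 4) against 73.2 ± 41.4 CPM in control (n = 3), with a log2 fold change of 1.32 ± 0.27 (adjusted p = 0.00344, 1.39% of 5604 genes called). The highest control mouse had 119.5 CPM and the lowest 24 h mouse 112.2 CPM, so the groups overlapped, and without control mouse 1 the call was lost (log2 fold change 1.02, adjusted p = 0.0582).

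Erythroid progenitor-like cells had nearly no Ly6a. The 3 control mice had 0, 0.94 and 1.42 CPM, the 3 h mice 5.32, 6.55, 1.29 and 11.8 CPM, the 24 h mice 4.53, 3.09, 2.98 and 3.13 CPM and the 72 h mice 0, 1.57, 0.77 and 0.94 CPM. These values rest on 6, 12, 29 and 4 UMIs, and the gene did not pass the filter on low counts in this class. With no filter the log2 fold change was 2.60 ± 0.80 at 3 h (adjusted p = 0.00800) and 1.92 ± 0.72 at 24 h (adjusted p = 0.0324), and the 3 h mice overlapped with control. The order of the classes by Ly6a level in control was HSC-like, LMPP-like, MK, myeloid and erythroid, and at 24 h the same order held. In control the LMPP-like and MK values overlapped, as did the myeloid and erythroid ones, and the HSC-like mice lay above all mice of the other classes.

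Whether Ly6a changed to the same extent in the classes was asked with an interaction of class and time point, with the mouse as a block and 4 classes in the fit. At 24 h the log2 change of the HSC-like class was smaller than that of the myeloid class by 1.90 (difference -1.90 ± 0.27, 95% interval -2.44 to -1.35, adjusted p = 1.40e-07), in a contrast in which 1.47% of 10670 genes passed. At 3 h the difference was -0.78 ± 0.31 and did not pass (adjusted p = 0.173, 2.84% of genes called), and at 72 h it was -0.01 ± 0.49 (95% interval -0.99 to 0.97). Between the HSC-like and MK classes the differences were 0.16 (95% interval -0.27 to 0.59) at 3 h, 0.13 (-0.27 to 0.54) at 24 h and 0.10 (-0.42 to 0.61) at 72 h, none of which passed.

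Within clusters, Ly6a rose at 3 and 24 h in both HSC-like clusters, in clusters 1 and 5 of the myeloid class and in clusters 2, 3, 8 and 11. Clusters 3 and 11 are the cells of the MK and LMPP-like classes again, here with mice of at least 3 cells. This added control mouse 4 with 8 cells to cluster 3. At 3 h the mice of cluster 11 had 4, 6, 23 and 7 cells and 275.8 ± 141.5 CPM. Ly6a was not tested in clusters 6, 7 and 12, where it did not pass the filter, and in cluster 9, with no UMI in control, it passed the filter through the treated mice alone, so that its call there is not counted. Control values were low in clusters 1 and 5 as well, with 2.08 ± 1.59 and 4.31 ± 3.17 CPM. In cluster 4, the larger HSC-like cluster, the log2 fold changes were 2.35 ± 0.13 at 3 h, 1.38 ± 0.13 at 24 h and -0.19 ± 0.14 at 72 h (adjusted p = 0.604). Cluster 10 had the highest level of all, with 305.0 CPM in control and 1305 CPM at 3 h, and changes of 2.06 ± 0.12, 0.91 ± 0.12 and -0.78 ± 0.14. The fall of cluster 10 at 72 h passed the test (adjusted p = 1.12e-04) and its groups did not overlap, in a comparison in which 2.22% of genes passed. Cluster 4 took 68.5% of the HSC-like cells in control and 67.9%, 71.5% and 70.7% of those of 3, 24 and 72 h.

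In clusters 1, 2 and 5 the log2 fold change at 24 h was near that at 3 h, whereas it was lower in both HSC-like clusters. Cluster 2, led by Ms4a2 and Cpa3 of the basophil and mast cell lineage but also by Dntt and Flt3, rose by 2.62 ± 0.20 at 3 h and 2.82 ± 0.19 at 24 h, from 14.5 CPM to 102.1 and 121.1 CPM. Cluster 1, led by the granule genes Mpo and Elane, rose by 2.60 ± 0.33 and 2.49 ± 0.29. Cluster 5, led by the monocyte and dendritic cell genes Ms4a6c, Ly86 and Irf8, rose by 2.84 ± 0.36 and 3.02 ± 0.32. Cluster 8, led by the mitotic genes Nusap1, Mki67 and Top2a, rose by 2.36 ± 0.20 and 1.71 ± 0.18. Whether these clusters differ from each other was not tested. The share of all genes that passed at 3 and 24 h was 16.4% and 10.5% in cluster 1, 15.1% and 5.3% in cluster 2, 10.3% and 3.64% in cluster 3, 17.3% and 3.96% in cluster 4 and 16% and 7.18% in cluster 5. It was 12.7% and 3.79% in cluster 8, 14.3% and 3.81% in cluster 9, 11.3% and 2.6% in cluster 10 and 9.64% and 1.13% in cluster 11.

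Cluster 9, led by Gm15915, Trib2, Apoe and Gata2, had 0 Ly6a UMIs in its 150 control cells, which allows up to 1.75 CPM (3 counts over the group) and a share of up to 2% of cells with a Ly6a UMI, whatever the share that expresses the gene. At 3 h its 115 cells, pooled over mice, held 45 Ly6a UMIs, or 40.1 CPM, which was 23.0 times that limit. At 24 h its 195 cells held 46 UMIs, or 16.6 CPM, 9.49 times the limit. The 4 mice ranged from 19.0 to 55.8 CPM at 3 h and from 5.17 to 22.1 CPM at 24 h, with TMM scaling. At 72 h there were 6 UMIs in 201 cells. The limits cover the counting error of the control cells only. The pooled folds cover neither the error of the treated UMIs nor the spread between mice.

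**Figure D2:**
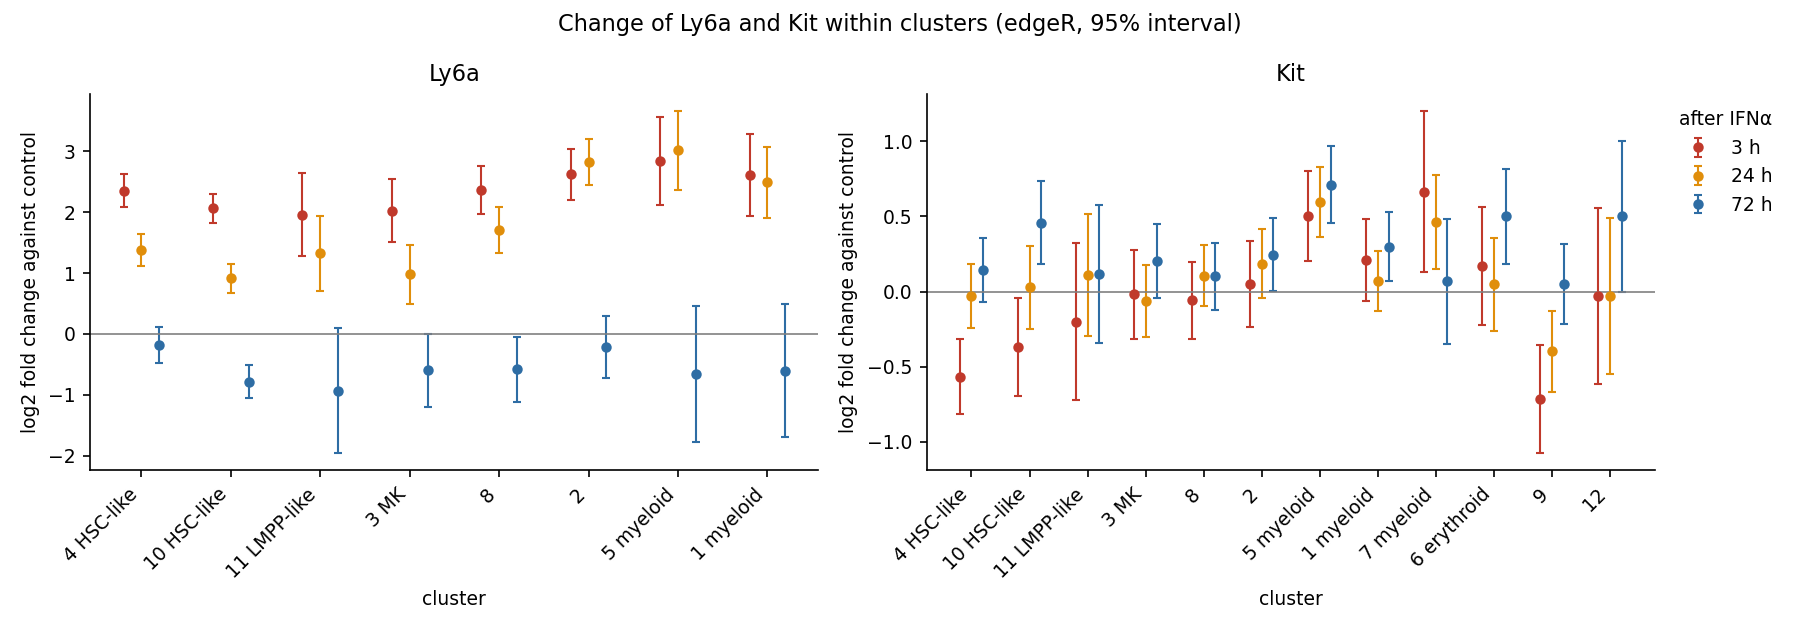
Log2 fold change against control of Ly6a and Kit within clusters at 3, 24 and 72 h (points, edgeR), with 95% intervals as bars. Ly6a lies above 0 at 3 and 24 h in every cluster shown, and cluster 9, with no Ly6a UMI in control, is left out of the Ly6a panel, whereas Kit falls below 0 at 3 h in clusters 4 and 9 and rises in cluster 5.

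At the level of single cells, the share with a Ly6a UMI was compared after thinning cells to 5000 UMIs, and cells with fewer were left out. This removed 2.64% of HSC-like cells in control and 6.31%, 1.96% and 4.14% of those at 3, 24 and 72 h. Of myeloid cells it removed none in control and at 3 and 24 h, and 0.26% at 72 h. In the HSC-like class the share was 48.3 ± 12.6% in control (n = 4, the highest 66.7% in mouse 4 with 12 cells). It reached 87.3 ± 4.16% after 3 h, 73.6 ± 3.84% after 24 h and 42.3 ± 4.2% after 72 h. Among myeloid cells it was 1.23 ± 0.96%, 6.87 ± 3.44%, 10.7 ± 1.85% and 1.00 ± 1.26%, and without thinning it was 6.86% in control, 27.8% at 3 h and 39.3% at 24 h. Among MK cells the share was 14.97 ± 4.49% in control (n = 3), 36.0 ± 8.49% at 3 h, 22.1 ± 3.26% at 24 h and 13.2 ± 4.36% at 72 h. Before thinning, the median UMIs per cell in control were 11071 in the HSC-like, 33730 in the myeloid and 31780 in the erythroid class.

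Free RNA in a droplet can give a UMI in a cell that does not express the gene, so the shares are set beside those of erythroid cells, which have nearly no Ly6a. At 5000 UMIs 0 of 198 erythroid cells of the 3 control mice held a Ly6a UMI, which allows up to 1.52% of cells with a UMI at that depth and no limit on the cells that express the gene, and the shares were 1.998 ± 2.35%, 1.44 ± 1.17% and 0.68 ± 1.35% at 3, 24 and 72 h. Without thinning they were 1.35% in control and 12.3%, 6.90% and 1.83% after treatment. The thinned shares of myeloid cells in control and at 72 h were thus not told apart from this background. At 3 h the myeloid mice, from 2.99% to 11.4%, overlapped with the erythroid ones, from 0% to 4.55%, and at 24 h they lay above them, from 9.16% to 13.1% against 0% to 2.82%. Without thinning, the myeloid mice lay above the erythroid ones at 3 h (20% to 34.1% against 2.86% to 18.2%). The same held at 24 h (36.8% to 43.2% against 5.08% to 9.30%) and at 72 h (3.80% to 9.57% against 0% to 2.70%). In control the classes overlapped, with 0% to 10.4% against 0% to 2.5%. By the median, myeloid cells held somewhat more UMIs than erythroid ones in each group. Whether the UMIs of erythroid cells at 3 h were free RNA was not tested.

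The mice of 3 and 24 h lay above all control mice in the HSC-like and myeloid classes, as did those of 3 h in the MK class, and each of these exact permutation tests gave p = 0.0286, the smallest p that 4 mice against 4 or 3 allow. Adjusted over the 65 member, class and time point values it was 0.206, so that no share passed. With this smallest p a share could pass only if most of the 65 tests reached it. No conclusion on the shares is drawn from their not passing.

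HSC-like cells made up 61.9 ± 10.3% of the cells with a Ly6a UMI in control and 62.6 ± 2.92%, 52.9 ± 3.59% and 74.4 ± 2.84% of them 3, 24 and 72 h after IFNα. Among all kept cells at the same depth they were 17.6%, 29.8%, 23.1% and 27.98%. Myeloid cells were 3.06 ± 2.21% of the cells with a Ly6a UMI in control and 2.61 ± 0.98%, 6.67 ± 0.61% and 1.02 ± 1.30% of those of 3, 24 and 72 h, while they were 29.8% of all cells in control and 16.7% at 3 h. Clusters outside the 5 classes took 12.7 ± 9.87%, 20.3 ± 3.00%, 27.3 ± 3.69% and 10.7 ± 2.15% of them. Cells with a UMI from free RNA are counted here too. The mixture of LK cells and added HSCs was set by the sort, so these shares describe that mixture and were not tested.

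**Figure D3:**
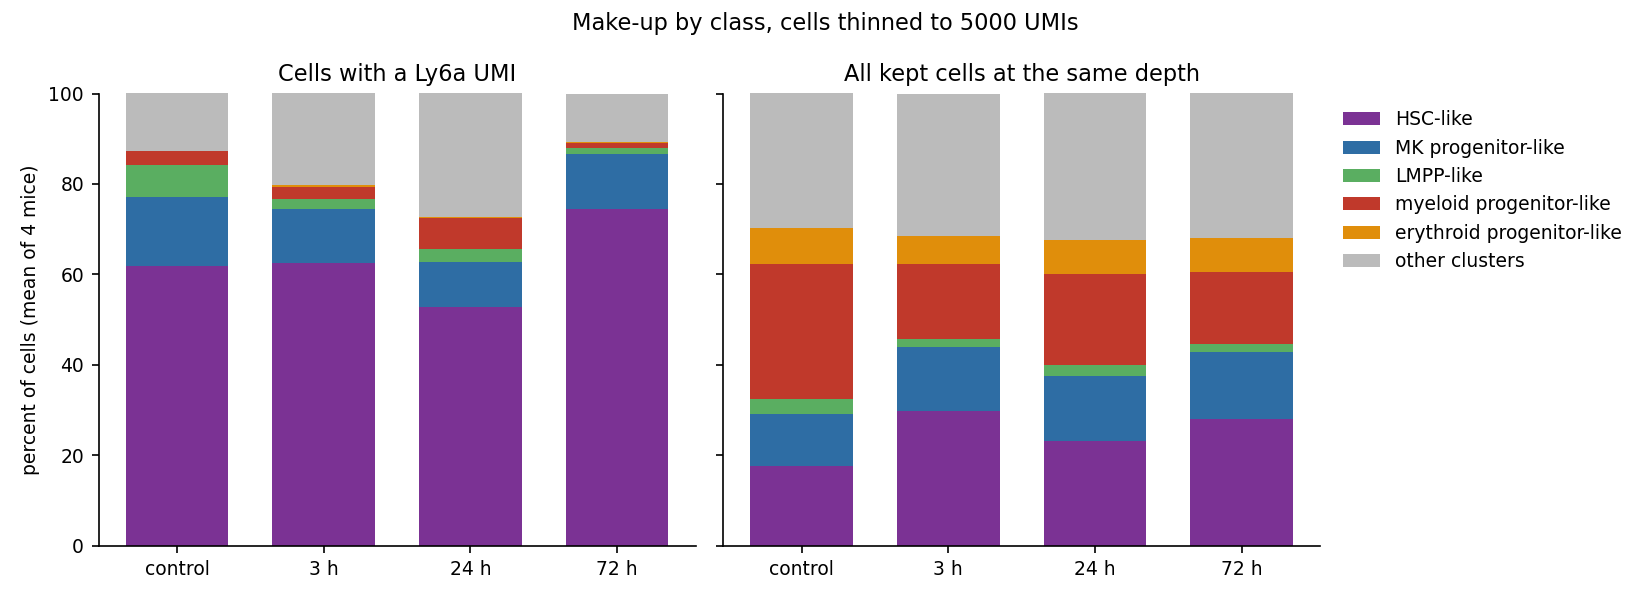
Make-up by class of the cells with a Ly6a UMI (left) and of all kept cells of at least 5000 UMIs (right), each thinned to 5000 UMIs, as stacked mean percentages of 4 mice per time point. HSC-like cells hold 52.9% of the cells with a Ly6a UMI at 24 h and 74.4% at 72 h.

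Over the whole compartment Ly6a was at 28.9 ± 6.66 CPM in control mice, and after IFNα at 235.9 ± 31.5 CPM (3 h), 109.4 ± 7.37 CPM (24 h) and 33.7 ± 5.11 CPM (72 h). The log2 fold changes were 3.11 ± 0.12 at 3 h, 2.0 ± 0.12 at 24 h and 0.30 ± 0.13 at 72 h (adjusted p = 0.0857), where 38.8%, 28.3% and 37.4% of 12042 genes passed. The change at 72 h passed without control mouse 1 (0.49, adjusted p = 0.00697). At 72 h the sign was thus opposite to that in the HSC-like class (-0.43), with HSC-like cells at 27.98% of the cells against 17.6% in control. In a bulk sum, a shift in cell types and a change of RNA per cell cannot be told apart. The same holds for the other members over the whole compartment below, where the same shares of all genes apply.

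Among the other Ly6 genes tested in the HSC-like class, Ly6e, an interferon-stimulated member of the family that takes part in antiviral defence, moved in the same direction as Ly6a at 3 and 24 h. Its log2 fold change was 1.76 ± 0.06 at 3 h (adjusted p = 8.53e-23) and 0.57 ± 0.06 at 24 h (adjusted p = 2.81e-08), and in the myeloid class it was 0.44 ± 0.04 and 0.42 ± 0.04. Ly6c2, which encodes the Ly6C antigen of monocytes, moved the other way in the HSC-like class, with -1.18 ± 0.44 at 3 h (adjusted p = 0.0464) and -1.55 ± 0.40 at 72 h (adjusted p = 0.0107). The 17 myeloid markers, Ly6c2 among them, summed in this class to between 1209 and 1551 CPM in control, between 1614 and 1859 CPM at 3 h and between 1249 and 1538 CPM at 72 h. Among myeloid cells Ly6c2 fell by 0.41 on the log2 scale at 72 h and Ly6k fell by 2.0 at 24 h (adjusted p = 0.0224). Of the 3 tested genes of the Ly6 list in the HSC-like class, with Ly6a, 2 rose and 1 fell at 3 h (median log2 change 1.76 against -0.03 over all genes), 2 rose at 24 h and 2 fell at 72 h. Of all genes 19.3%, 5.07% and 4.64% passed at these times.

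The median change of the ISG list was smaller at 24 h than at 3 h in the HSC-like and in the myeloid class, whereas that of Ly6a was smaller in the HSC-like class and near level in the myeloid class (3.01 and 3.102). Of its 54 genes tested in the HSC-like class, 52 rose at 3 h with a median log2 change of 3.19, 44 rose at 24 h with a median of 0.72, and 13 fell at 72 h with a median of -0.27, where all genes had medians of -0.03, 0.00 and 0.00. Of the same genes in the myeloid class 52 rose at 3 h with a median of 3.31 and 49 at 24 h with a median of 1.25. The shares of all genes that passed in the HSC-like class were 19.3%, 5.07% and 4.64% at 3, 24 and 72 h. In the myeloid class they were 24.8% at 3 h and 15.6% at 24 h. Over the 62 class sums of all mice, the genes whose log2 CPM was most like that of Ly6a were Plxna4os1 (Pearson r = 0.94), Il18, a cytokine of the interleukin family (0.93), and Irf2, an interferon regulatory factor (0.91), out of 10670 genes. These sums share mice, libraries and classes and are not independent.

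Kit, whose protein gated every cell of the sort, moved in opposite directions in the HSC-like and myeloid classes at 3 h. In the HSC-like class the control mice had 192.0, 154.3, 162.8 and 235.7 CPM and the 3 h mice 126.6, 123.3, 119.6 and 129.7 CPM, so that every 3 h mouse lay below every control mouse. The log2 fold change was -0.49 ± 0.10 (adjusted p = 2.31e-04). At 24 h the mice had 174.6, 188.6, 170.2 and 152.4 CPM (log2 fold change -0.01 ± 0.08) and at 72 h 216.1, 216.2, 188.9 and 196.4 CPM (0.23 ± 0.08, adjusted p = 0.122), both of which overlapped with control. From 3 to 24 h Kit rose by 0.47 ± 0.09 (adjusted p = 1.14e-04, 17.6% of genes called). The share of HSC-like cells with a Kit UMI at 5000 UMIs was 63.1 ± 19.8% in control and 39.4 ± 4.64% at 3 h. The highest control value, 91.7%, was that of control mouse 4 with 12 cells, and the lowest was 47.2%. The 3 h mice lay below all control mice in this share (exact permutation p = 0.0286, adjusted 0.206). Beside this, the 14 HSC markers summed to between 1347 and 1570 CPM at 3 h against 1554 to 2015 CPM in control, and the median UMIs per HSC-like cell were 8784 against 11071. Their part in the lower Kit values was not tested.

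In the myeloid class Kit was lower and rose at all 3 times. The control mice had 46.2, 43.6, 51.5 and 58.1 CPM, the 3 h mice 55.7, 54.5, 71.8 and 55.6 CPM, the 24 h mice 56.2, 58.6, 58.2 and 61.3 CPM and the 72 h mice 65.5, 57.4, 71.5 and 56.1 CPM. The highest control value, of mouse 4 with 16 cells, lay within the range of all 3 treated groups. The log2 fold changes were 0.35 ± 0.10 at 3 h (adjusted p = 0.00847), 0.31 ± 0.08 at 24 h (adjusted p = 0.00370) and 0.42 ± 0.08 at 72 h (adjusted p = 6.75e-04). The call at 3 h rested on mouse 3 of that group, without which the log2 fold change was 0.22 (adjusted p = 0.164), and was also lost when libraries were scaled by their totals alone (0.22, adjusted p = 0.0925).

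The difference between the HSC-like and the myeloid change of Kit at 3 h was -0.85 ± 0.17 (95% interval -1.18 to -0.51, adjusted p = 5.22e-04). Without 3 h mouse 3 it was -0.62 and did not pass (adjusted p = 0.102). At 24 and 72 h the differences were -0.30 (95% interval -0.55 to -0.05) and -0.18 (-0.45 to 0.09), which did not pass.

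By cluster, Kit fell at 3 h in cluster 4 (log2 fold change -0.57 ± 0.12, adjusted p = 6.79e-04, 17.3% of genes called) from 186.9 to 112.8 CPM. It also fell in cluster 9 (-0.72 ± 0.18, adjusted p = 0.00205, 14.3% called), where the groups overlapped. In cluster 10, the other HSC-like cluster, Kit was at 183.9 ± 38.7 CPM in control and 158.8 ± 32.1 CPM at 3 h, with overlapping groups. At 72 h Kit was there at 273.5 ± 34.0 CPM, from 246.1 to 321.9 CPM against 128.4 to 214.1 CPM in control. It rose at all 3 times in cluster 5, by 0.51 ± 0.15, 0.60 ± 0.11 and 0.71 ± 0.13, from 48.2 CPM to between 61.4 and 71.5 CPM (5.67% of genes called at 72 h). Cluster 5 took 29.5% of the myeloid class in control and 43.5%, 43.8% and 42.4% at 3, 24 and 72 h, whereas cluster 7, led by the granule genes S100a8 and S100a9, took 24.3% in control and 6.87%, 8.27% and 9.21% after treatment. A class sums its clusters, so these shares move with the class values of Kit, and their part in them was not tested.

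In the erythroid class, where Kit is known to be needed for early progenitors, the 3 control mice had 57.0, 76.7 and 52.7 CPM and the 72 h mice 77.7, 99.1, 67.1 and 109 CPM. The log2 fold change at 72 h was 0.50 ± 0.16 and did not pass (adjusted p = 0.0621). It passed with the likelihood ratio test (adjusted p = 0.0363), with no filter on low counts (0.00780), with at least 20 cells per mouse (0.0306), with the replicate block (0.0432) and without the 3 h library (0.0332). It also passed without control mouse 2 (log2 fold change 0.67, adjusted p = 0.00685), 3 h mouse 1 (0.50, adjusted p = 0.0306) or 72 h mouse 3 (0.61, adjusted p = 0.0206), and it did not pass with DESeq2 or without any other mouse. In the MK class the values lay between 80.5 and 141 CPM over all groups, and the log2 fold changes between -0.08 and 0.18 did not pass. Over the whole compartment Kit rose by 0.16 ± 0.06 at 3 h, 0.23 ± 0.05 at 24 h and 0.53 ± 0.05 at 72 h (adjusted p = 0.0308, 0.00250 and 1.02e-07). Of all genes 38.8%, 28.3% and 37.4% passed at these times. In control, Kit was at 186.2 CPM in the HSC-like and 49.8 CPM in the myeloid class. HSC-like cells took a larger share of the kept cells after treatment and myeloid cells a smaller one, and the part of this shift in the rise was not tested. The rise at 3 h was lost with scaling by library totals alone (log2 fold change 0.01, adjusted p = 0.912) and without control mouse 2 or 3 or 3 h mouse 2 or 3 (0.12, 0.15, 0.15 and 0.10), and had the opposite sign to the HSC-like class.

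Of the 13 genes of the Kit pathway list tested in the HSC-like class, Kit included, 2 rose and 5 fell at 3 h, with a median log2 change of -0.09 against -0.03 for all genes. Of all genes 19.3% passed in either direction there. Socs1, a feedback inhibitor of cytokine signalling that interferon is known to induce, rose by 2.78 ± 0.23 (adjusted p = 8.28e-14). Lyn, a kinase of the Src family that acts downstream of c-Kit, rose by 0.66 ± 0.14. Of the list in the myeloid class 4 rose and 4 fell at 3 h (median -0.04), with Socs1 at 2.35 ± 0.22 and Lyn at 0.56 ± 0.10. At 24 h 3 rose in that class, Socs1 by 0.71 ± 0.21, Lyn by 0.33 ± 0.08 and Kit. The shares of all genes that passed in the myeloid class were 24.8% at 3 h and 15.6% at 24 h. In the HSC-like class the medians of the list at 24 and 72 h were -0.07 and 0.00. The genes most like Kit over the class sums were Xist, Malat1 and Ash1l (r = 0.90, 0.90 and 0.89).

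**Figure D4:**
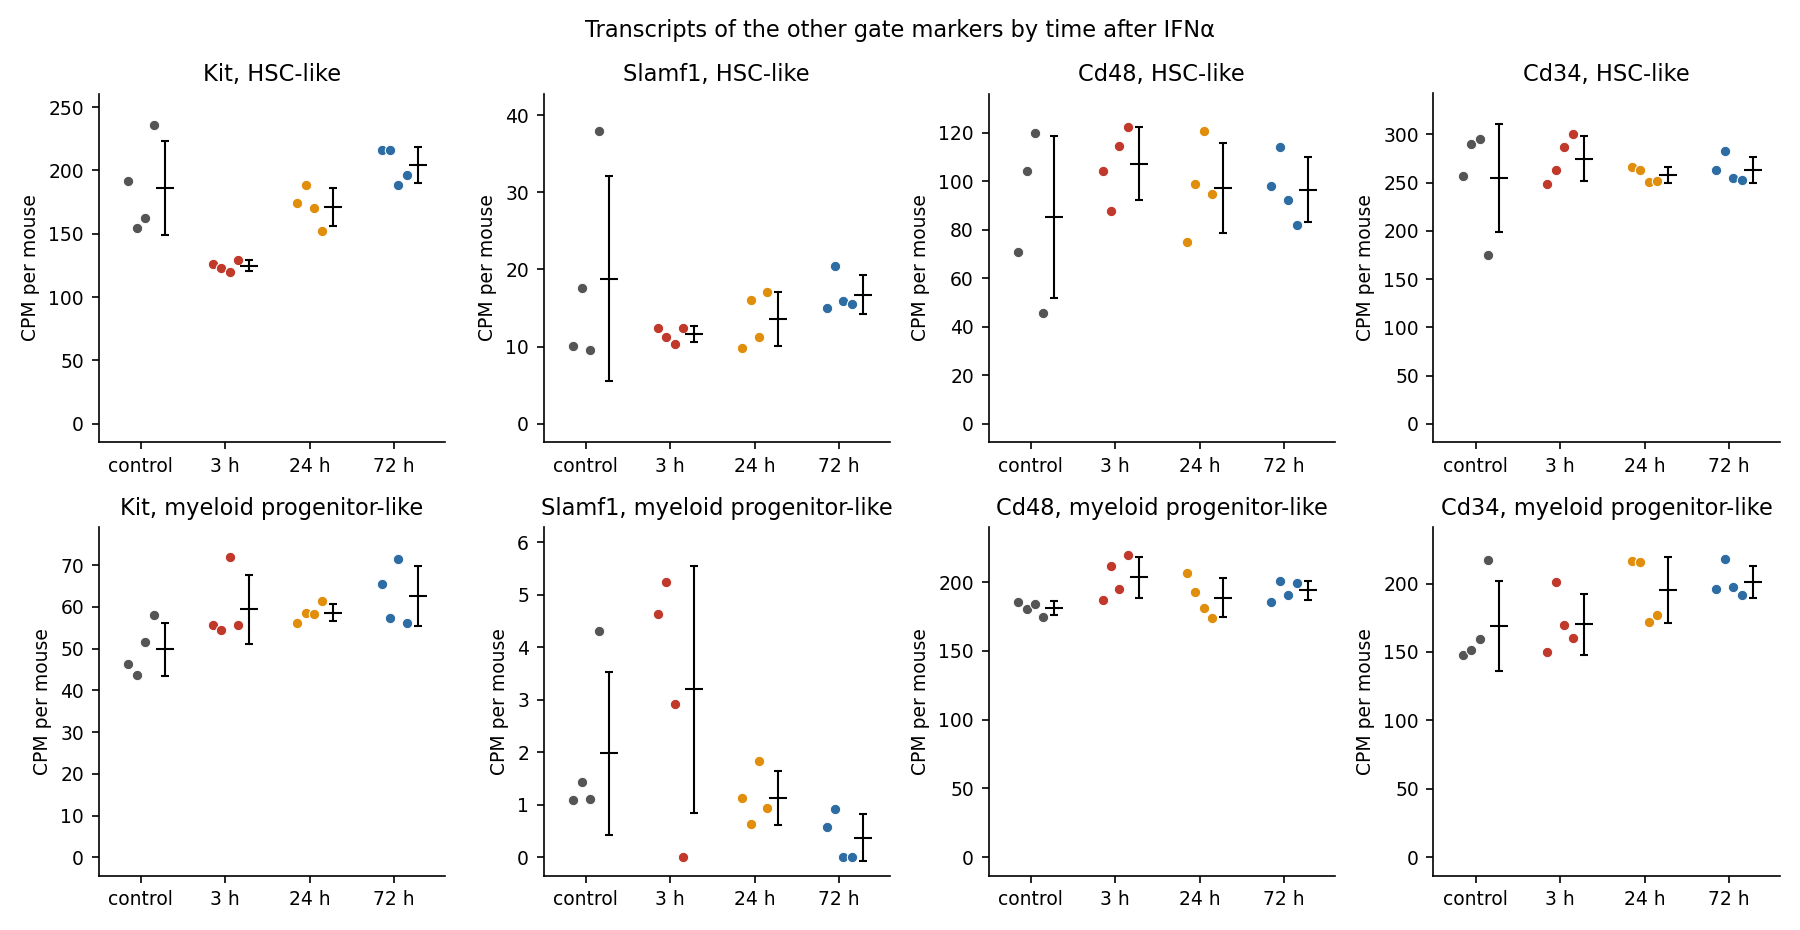
CPM per mouse of Kit, Slamf1, Cd48 and Cd34 in the HSC-like (top) and myeloid progenitor-like (bottom) class by time after IFNα, with the mean and SD of each group beside the points. Kit in the HSC-like class lies below all control values at 3 h only, and the highest Slamf1 value of the HSC-like class is that of control mouse 4 (38.0 CPM).

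Slamf1 was sparse. In the HSC-like class the control mice had 10.0, 17.6, 9.61 and 38.0 CPM, from 64 UMIs in all, and the highest value was that of control mouse 4 with 12 cells. The 3 h mice had 12.4, 11.2, 10.3 and 12.5 CPM, the 24 h mice 9.85, 16.1, 11.3 and 17.1 CPM and the 72 h mice 15.02, 20.4, 15.9 and 15.6 CPM, all within the range of control. The log2 fold changes were -0.18 ± 0.30, 0.14 ± 0.24 and 0.36 ± 0.25 with 95% intervals of -0.78 to 0.42, -0.35 to 0.63 and -0.14 to 0.86, and none passed. In the MK class, where CD150 is also known on the surface, Slamf1 was at 16.9 ± 6.74 CPM in control and between 14.2 and 20.4 CPM after treatment, and no change passed. Erythroid cells had 5.35 ± 1.35 CPM in control (n = 3), 2.40 ± 0.83 CPM at 3 h from 5 UMIs, and 7.97 ± 0.81 CPM at 24 h. Among myeloid cells 33 UMIs in control gave 1.99 ± 1.55 CPM and 4 UMIs at 72 h gave 0.38 ± 0.45 CPM, and the gene was filtered out there. At this depth, changes of Slamf1 smaller than these intervals were not detectable.

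Over the whole compartment Slamf1 rose by 0.48 ± 0.16 on the log2 scale at 24 h (adjusted p = 0.0266) and by 0.66 ± 0.17 at 72 h (adjusted p = 0.00358), from values in control of 4.82, 6.01, 5.05 and 13.04 CPM. The 24 h mice had 6.83, 8.62, 7.25 and 7.82 CPM and the 72 h mice 10.2, 8.97, 6.70 and 9.03 CPM, so that all lay above control mice 1 to 3 and below control mouse 4. The call at 24 h was lost with DESeq2 (adjusted p = 0.148) and without control mouse 1 or 3 or 24 h mouse 2 (log2 fold change 0.39, 0.42 and 0.41). The genes most like Slamf1 over the class sums were Slc2a3, a glucose transporter, Pdzk1ip1 and Sgms1 (r = 0.87, 0.86 and 0.86), and Pdzk1ip1 is in the HSC marker list.

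Cd48, which the HSC gate excludes and most progenitors carry, changed in the erythroid class. The 3 control mice had 30.0, 40.5 and 34.7 CPM and the 24 h mice 75.7, 79.4, 57.1 and 78.3 CPM, all above control (log2 fold change 1.06 ± 0.14, adjusted p = 2.41e-06). The 3 h mice had 29.2, 50.8, 55.6 and 51.8 CPM (0.48 ± 0.19, adjusted p = 0.108) and the 72 h mice 42.4, 55.0, 42.4 and 48.0 CPM (0.42 ± 0.16, adjusted p = 0.124), the latter all above control but not passing the test. From 24 to 72 h Cd48 fell by 0.64 (adjusted p = 0.00375, 2.86% of genes called). Cd48 was the 1 member of 3 tested in this class that passed at 24 h, against 9.82% of 8266 genes. The difference between the HSC-like and the erythroid change at 24 h was -1.03 ± 0.20 (95% interval -1.44 to -0.63, adjusted p = 5.83e-04, 3.54% of 10670 genes called), and without control mouse 3 it was -0.84 (adjusted p = 0.0548).

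Cd48 is high in myeloid cells, so the marker sums of the erythroid class are given beside it. The myeloid markers summed there to between 156 and 194 CPM in control and between 151 and 227 CPM at 24 h, with Ngp and Fcnb at 0 in both. The 15 erythroid markers summed to between 9286 and 11834 CPM in control and between 6824 and 8413 CPM at 24 h. The 8 monocyte markers summed to between 5.996 and 8.94 CPM in control and between 10.3 and 17.4 CPM at 24 h, with C1qa and Fcgr1 at 0 in both. Of the T and NK cell list 1 of 5 genes had UMIs, Nkg7, a granule protein of cytotoxic cells, at 37.3 to 62.6 CPM in control, 66.6 to 115.5 CPM at 24 h and 30.8 to 60.2 CPM at 72 h, while Cd3d, Cd3e, Cd3g and Klrd1 were at 0. The monocyte sum and Nkg7 were thus higher at 24 h than in control without overlap, as Cd48 was. The part of any of these in the change of Cd48 was not tested.

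In the other classes Cd48 changed little. In the HSC-like class it was at 85.2 ± 33.4 CPM in control, from 45.6 to 119.8 CPM, and at 107.2 ± 14.95, 97.2 ± 18.7 and 96.5 ± 13.5 CPM after treatment, and the log2 fold changes of 0.16, 0.03 and 0.00 had 95% intervals within -0.29 and 0.47. In the myeloid class it was at 181.2 ± 5.09 CPM in control and at 203.4 ± 15.05 CPM at 3 h (log2 fold change 0.15 ± 0.06, adjusted p = 0.0795), where the groups did not overlap. By cluster it also rose in cluster 9 at 24 h (0.47 ± 0.14, adjusted p = 0.0378, 3.81% of genes called). Over the whole compartment it fell by 0.19 at 72 h (adjusted p = 0.0170), a call that was lost without control mouse 1 or 2 or 72 h mouse 1 or 4 (log2 fold change -0.17, -0.17, -0.15 and -0.16). The genes most like Cd48 over the class sums were Atp8b4, Mpo, the myeloperoxidase of granules, and Rnpep (r = 0.94, 0.93 and 0.93).

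The 5 SLAM family genes tested in the HSC-like class, Slamf1 and Cd48 among them, had median log2 changes of 0.16, 0.13 and 0.12 at 3, 24 and 72 h. In the myeloid class Ly9 (SLAMF3), an adhesion receptor of the family, rose by 0.68 ± 0.17 at 3 h (adjusted p = 0.00465) and 0.43 ± 0.14 at 24 h, and Cd84, another, rose by 0.43 ± 0.11 at 24 h (adjusted p = 0.00466).

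Cd34 was level in the HSC-like class, where the control mice had 257.3, 290.1, 295.6 and 174.8 CPM. The groups had means of 274.6 ± 23.5, 257.8 ± 8.38 and 263.3 ± 13.7 CPM at 3, 24 and 72 h, and the log2 fold changes of 0.00, -0.09 and -0.06 had 95% intervals within -0.24 and 0.17. When libraries were scaled by their totals alone the change at 3 h was -0.21 (adjusted p = 0.0361). The HSCs added to each library were sorted as CD150+ CD48- CD34-. The part of that gate in the Slamf1, Cd48 and Cd34 values of this class was not tested. Cd34 rose in the myeloid class by 0.32 ± 0.07 at 24 h (adjusted p = 0.00270) and by 0.36 ± 0.08 at 72 h (adjusted p = 0.00189). The control mice of that class had 147.4, 151.1, 159.6 and 217.3 CPM, the 24 h mice 216.1, 215.8, 171.7 and 176.8 CPM and the 72 h mice 196.2, 217.9, 197.8 and 191.9 CPM. Control mouse 4, with 16 cells, lay at the upper end of the treated groups, and the other 3 control mice lay below all of them. In none of clusters 1, 5 and 7 did Cd34 pass at 24 or 72 h, and the share of cluster 7 in the class had fallen as given above. Its mean in control and at 24 and 72 h was 151.5, 156.1 and 182.3 CPM in cluster 1. The means were 293.2, 279.2 and 273.9 CPM in cluster 5 and 59.9, 40.5 and 24.5 CPM in cluster 7. By these means Cd34 was higher than in control in cluster 1 and lower in clusters 5 and 7, each with overlapping groups. The control mice ranged from 244.3 to 411.1 CPM in cluster 5 and from 27.0 to 137.0 CPM in cluster 7. In both, the mean of the control mice other than the highest was below the 24 h mean, so the direction there rests on a single mouse. The part of the cluster shares in the class rise was not tested.

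The difference between the HSC-like and myeloid changes of Cd34 was -0.42 ± 0.11 at 24 h (adjusted p = 0.0273) and -0.44 ± 0.12 at 72 h (adjusted p = 0.0760). The first did not pass without control mouse 1, 2 or 3 (-0.40, -0.34 and -0.39), 3 h mouse 1 (-0.38), 24 h mouse 1, 2 or 3 (-0.36, -0.32 and -0.43) or 72 h mouse 1 (-0.36). By cluster, Cd34 fell at 3 h in cluster 1 by 0.29 (adjusted p = 0.0336) and in cluster 2 by 0.24 (adjusted p = 0.0205), each with overlapping groups. Erythroid cells had 1.54 ± 0.55 CPM in control from 11 UMIs, and MK cells 91.6 ± 33.4 CPM, with log2 fold changes of -0.16, -0.34 and -0.29 that did not pass. Over the whole compartment Cd34 rose by 0.16 ± 0.06 at 24 h (adjusted p = 0.0362), with overlapping groups, a call lost without any 1 of the control mice or of 24 h mice 1 and 2 (log2 fold change from 0.12 to 0.18). The genes most like Cd34 over the class sums were Limd2, 1700025G04Rik and Serpinf1 (r = 0.98, 0.98 and 0.97).

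A gate combines markers, so cells with UMIs of both Kit and Ly6a were counted at 5000 UMIs per cell. They were 8.39 ± 4.07% of all control cells and 16.1 ± 2.21%, 16.4 ± 1.91% and 9.20 ± 1.20% of all cells 3, 24 and 72 h after IFNα. Control mouse 4 had 8 such cells of 57, or 14.0%, and the other 3 control mice had 8.70%, 5.17% and 5.67%. Among HSC-like cells the share was 31.8 ± 18.7% in control, and 35.4 ± 6.64%, 42.9 ± 2.65% and 26.6 ± 3.37% at 3, 24 and 72 h. The highest control value, 58.3%, was that of mouse 4 with 7 of 12 cells, and the others were 30.8%, 16.04% and 22.2%. The 24 h mice ranged from 40.8% to 46.8%. Among myeloid cells the share was 0.41 ± 0.48% in control and 3.35 ± 1.49% at 24 h, or 24 of 689 cells. Cells with a Slamf1 UMI but none of Cd48 or Cd34, modelled on the HSC gate, were 3.40 ± 2.43%, 2.57 ± 0.49%, 2.66 ± 0.48% and 2.68 ± 1.04% of all cells. The control mean rests on mouse 4, with 4 of 57 cells or 7.02%, and the other 3 control mice had 1.84%, 2.38% and 2.34%, within the range of the treated mice from 1.69% to 3.62%. Of these cells 16 of 56 were HSC-like in control and 17 MK progenitor-like, and at 24 h it was 34 and 35 of 94. A missing UMI at this depth does not show that the transcript was absent. Among control myeloid cells a Cd48 UMI was found in 60.4% at 5000 UMIs and in 96.1% without thinning. The shares of these combinations are descriptions and were not tested.

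Of 17 other genes by which stem and progenitor cells are gated, 2 rose and 6 fell in the HSC-like class at 3 h, with a median log2 change of -0.50 against -0.03 for all genes, in a comparison in which 19.3% of all genes passed. Cd93, a glycoprotein of early progenitors, fell by 0.79 (adjusted p = 5.01e-04) and Esam, an adhesion molecule of HSCs, fell by 0.78 (adjusted p = 0.00130). At 24 h 1 of the 17 passed, against 5.07% of all genes. It was Flt3, the receptor that marks multipotent and lymphoid-primed progenitors, which fell by 0.60 (adjusted p = 0.0297). Of 14 tested in the myeloid class 1 rose and 7 fell at 3 h, 4 rose and 3 fell at 24 h and 2 rose and 2 fell at 72 h, against 24.8%, 15.6% and 15.4% of all genes in either direction. There Vcam1, an adhesion molecule, fell by 1.22, 1.12 and 0.94 at 3, 24 and 72 h, and Alcam, another, fell by 0.61 at 3 h. Eng (endoglin) rose by 0.62 ± 0.12 at 24 h and Cd27, a receptor of the TNF family, by 0.51 ± 0.08 at 72 h. Vcam1 was among the leading genes of cluster 7, whose share in the class was lower after treatment.

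Of the genes behind the lineage cocktail 3 were tested in either class. Besides Ly6c2, Itgam (CD11b) fell in the myeloid class by 0.74 at 3 h (adjusted p = 0.0290) and by 0.56 at 24 h (adjusted p = 0.0178). Ptprc, whose B220 isoform is the antigen of the cocktail, rose there by 0.22 at 24 h and 0.26 at 72 h, and 3′ counts do not tell isoforms apart.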

How the data were processed

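Single-cell RNA of sorted HSPCs was measured in 4 libraries of 4 hashtagged mice each. The authors deposited raw UMI counts per gene and cell barcode (10x 3′ v3.1, Cell Ranger 3.1.0, mm10) and, per barcode, the hashtag assignment of Seurat with its margin, a score of hashtag signal whose normalization is not given in the sources used here; the assignment alone was used. Cells with a single hashtag, at most 5% mitochondrial UMIs and at least 700 genes were kept, which removes doublets between mice but not within a mouse. Control cells were clustered with scanpy 1.11.5 without the 5 members (500 variable genes, 10 components, 15 neighbours, resolution 0.8), named from marker lists, and their labels were transferred to the treated cells after mutual nearest neighbour correction (2000 variable genes, 50 components, k = 20). UMIs were summed per mouse and class (at least 10 cells) or cluster (at least 3 cells).

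Sums were tested with edgeR 4.0.16 (R 4.3.3; filterByExpr, TMM, quasi-likelihood), with p-values adjusted by Benjamini-Hochberg over all genes tested and an adjusted p under 0.05 as the threshold; DESeq2 1.42.0 was an alternative, and the scripts were tested on simulated data. Differences of change between classes were tested in 1 fit of 4 classes with the mouse as a block. Shares of cells with a UMI were taken at 5000 UMIs per cell and compared between mice with an exact permutation test, two-sided (scipy 1.17.1). Intervals and limits cover counting error only where they rest on UMIs. The depth of 1102706 to 26446327 UMIs per mouse sets the precision. A planned share of cells reaching the median Ly6a count of control HSC-like cells gave no comparison at 5000 UMIs, since that median was 0. Without thinning it was 1 UMI, so that reaching it meant holding any Ly6a UMI. That share was 60.2% of control HSC-like cells. Of myeloid cells it was 6.86% in control, 27.8% at 3 h and 39.3% at 24 h. Depth differs between these classes. Adjusted over 13 values the lowest p was 0.0531 (exact permutation test). The members and gene lists were chosen with earlier results of these data known. Named genes were the members, per list the 2 other genes of the largest change that passed in the HSC-like and myeloid classes, and the 3 genes most correlated with each member.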

Additional observations from a re-analysis of the deposited data

Results flagged for a closer look

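Of 95 groups of 4 mice, 8 held a mouse whose member CPM lay far from the rest of its group, where chance gives about 1 in 20. In the erythroid class these were Cd34 in 72 h mouse 2 (6.29 CPM), Cd48 in 24 h mouse 3 (57.1 CPM) and Ly6a in 24 h mouse 1 (4.53 CPM), and in the MK class Kit in 24 h mouse 1 (85.8 CPM). Kit in the myeloid class of 3 h mouse 3 was at 71.8 CPM, and Slamf1 in the HSC-like class of 72 h mouse 2 at 20.4 CPM. Control mouse 4 stood apart for Slamf1 in the myeloid class (4.30 CPM) and in the whole compartment (13.04 CPM), and had 58 kept cells.

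In 4 comparisons of classes the change of a member differed by the interaction test. The change of Ly6a at 24 h was smaller in the HSC-like than in the myeloid class by 1.90 on the log2 scale (difference -1.90, adjusted p = 1.40e-07). The change of Kit at 3 h differed between the same classes by -0.85 (adjusted p = 5.22e-04), and that of Cd34 at 24 h by -0.42 (adjusted p = 0.0273). The change of Cd48 at 24 h differed between the HSC-like and the erythroid class by -1.03 (adjusted p = 5.83e-04). Of 10670 genes 2.84% passed in the contrast of Kit, 1.47% in that of Ly6a and Cd34 and 3.54% in that of Cd48. Each of the Kit, Cd34 and Cd48 differences failed to pass without certain single mice, as given beside their results.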

How the results depend on the processing

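Of the member values under settings other than leaving out a mouse, 1979 kept their direction and side of the threshold, 30 gained and 24 lost a call and 2 reversed. Scaling by library totals alone moved the median of all genes by up to -0.22 in log2, over 0.1 in size in 5 of 16 comparisons with control, all at 3 h, and by up to 0.18 from 3 to 24 h, and reversed Cd34 in the HSC-like class at 3 h (-0.21) and Cd48 in the whole compartment at 3 h (-0.14). The fall of Ly6a in the HSC-like class at 72 h was lost with DESeq2 (-0.43), with likely doublets removed (-0.30) and with a minimum absolute log2 change of 1 (-0.43), which also cut the called member values from 15 to 8, by its construction. With no filter on low counts, the Ly6a difference between the HSC-like and myeloid classes passed at 3 h as well (-0.78, adjusted p = 0.0259), so that 2 in place of 1 passed. Apart from the minimum change, the causes were not tested.

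Leaving out each mouse in turn gave 13 to 18 called member values over classes, 6 to 9 in the whole compartment (9 with all mice), 1 to 1 Ly6a differences between classes and 0 to 0 shares. The count of shares was nearly fixed by the smallest p that their tests allow. Ly6a in the HSC-like class ranged from 2.08 to 2.45 at 3 h, from 1.02 to 1.39 at 24 h and from -0.59 to -0.22 at 72 h (adjusted p from 3.34e-04 to 0.335). In all, 3422 such values kept their call, 20 gained and 37 lost one. Cd34 and Kit calls lost in this way are given beside their results.

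Hashtag numbers did not pair the mice: over 24 pairs of mice with the same number the correlation of deviations was -0.06 to 0.11, over 0.1 in 2. With the number as a replicate block 16 class values and 9 whole-compartment values were called, and Kit in the erythroid class passed at 72 h (0.43, adjusted p = 0.0432). Adding the LMPP-like class to the fit of differences and leaving out the 3 h library were chosen after seeing the data; the first lost the Cd34 difference at 24 h (-0.38, adjusted p = 0.197).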
